A study of Mus musculus with 89 samples.

Results

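The red qNSC cells are single cells that the authors' deposited cell table puts in the class qNSC, read here as quiescent neural stem cell, and marks with a red colour code. They are 26 of the 60 qNSC cells and of 89 cells in all, 13 of them from 2-month-old and 13 from 4.5-month-old mice. The other qNSC cells carry a green code (25 cells) or a blue code (9 cells), and what the colours stand for and how the classes were made is not given in the sources used here. Comparing the ages within the red cells asks what differs between 2 and 4.5 months when the qNSC subset is held fixed.

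Both ages came from homozygous Nestin:CFPnuc mice on C57BL/6 (labelled B6.Cg-Tg(Nes-CFP)1Enik/J), in which the Nestin promoter drives a nuclear fluorescent protein. Dentate gyri were dissected, live cells were sorted singly, and full-length cDNA of each cell was amplified (SMART-Seq v4) and sequenced. The sort gate, the number of animals and their sex are not given in the sources used here. No label ties a cell to an animal, so each age counts as 1 sample, the ages were compared without a test, and every SD below is over cells and not over animals.

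Neural stem cells of the dentate gyrus are radial glia-like cells of the subgranular zone. Most of them rest outside the cell cycle, held there in part by Notch and bone morphogenetic protein signals, and they share much of their transcriptome with astrocytes, including lipid carriers and water channels. Like astrocytes they can make cholesterol through the mevalonate pathway, which the transcription factor SREBP2 (Srebf2) drives when membrane sterol is low, while sterol transporters such as ABCA1 carry the excess out of the cell.

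Total counts per cell ran from 244697 to 1485663 (median 1057922) at 2 months and from 618574 to 1270655 (median 912391) at 4.5 months, and 4 of the 2-month cells lay under the lowest 4.5-month cell. Cells had reads of 2309 to 4648 genes (median 3737) and 2621 to 5685 genes (median 3666). Thinned to 400000 reads, the medians were 3533 and 3177 genes over 11 and 13 cells, with 2 shallower 2-month cells left out. Sex-linked reads followed the ages: 11 of the 13 cells of 2 months had 10 or more reads of Y-linked genes and 0 had as many of Xist or Tsix, while at 4.5 months Xist or Tsix reached 10 reads in 11 of the 13 cells and Y-linked genes did so in 0. A count of 0 of 13 allows a share of up to 23.1%. Age and the sex of the animals can therefore not be told apart in these cells. Pairs of cells were about as alike across the ages as within them, with a median Spearman correlation over 7787 genes of 0.31 in 169 pairs across ages, 0.313 in 78 pairs within 2 months and 0.316 in 78 pairs within 4.5 months.

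The marker genes matched the class only in part. Of 16 quiescent stem cell markers, at least 50% reached 10 reads in 11 cells of 2 months and in 12 cells of 4.5 months. Reads of Hopx, which encodes a homeodomain protein, numbered 10 or more in all 26 cells, and those of Gfap, the glial filament gene, in 24. Nes, whose promoter drives the reporter, had a read in 0 of the 13 cells of 2 months and in 1 of the 13 cells of 4.5 months. Astrocyte markers, several of which stem cells also express, reached 50% in all 26 cells, with a median of 87.5% of 16 markers at 2 months and 93.75% at 4.5 months. S100b, an astrocyte calcium-binding protein, had 10 or more reads in 20 of the 26 red cells and in 6 of the 25 green cells. This gap was the widest among the 16 astrocyte markers. Gja1, Slc1a2 and Mlc1 reached 10 reads in all 26 and all 25 cells, Slc4a4 in 19 and 10, and Slc6a11 in 19 and 22. The progenitor and proliferation genes Eomes and Mki67 had 0 reads in all 26 cells, leaving room for a share of up to 11.5%. Of the 10 intermediate progenitor markers, only Hmgb2 had 10 or more reads in any red cell, in 7 of the 26.

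Endothelial markers were present in 1 cell of 4.5 months, with 8 of 11 markers at 10 or more reads (72.7%) against at most 9.1% in any other red cell. This cell had reads of 5685 genes, the most of its age. The other marker sets, for interneurons, granule neurons, neuroblasts, oligodendrocytes and their precursors, microglia, mural cells, ependyma, choroid plexus and red blood cells, reached 50% in 0 cells.

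Levels are given as CPM, the counts of a gene per 1000000 counts of the cell, and differences as the mean log2(CPM + 1) at 4.5 months minus that at 2 months. Of 7787 measured genes, those with a read in 20% or more of the cells at 1 of the ages, 3539 were higher and 4248 (54.6%) lower in mean at 4.5 months, with a median difference of -0.14. Without the endothelial-marker cell, 4403 of 7505 genes were lower and the median difference was -0.26. A size rule picked out genes whose mean differed by at least 1 and whose CPM of summed counts differed at least 2-fold in the same direction. It was met by 811 genes higher (10.4%) and 1102 genes lower (14.2%) at 4.5 months, and these shares are the background against which the lists below are read. Without the endothelial-marker cell it was met by 751 genes higher and 1233 lower. Among the genes given with values of their own below, Numb, Dhcr7, Ccnd2, Dab1, Axl and Pros1 no longer met the rule without this cell. Hey1, Laptm4b, Mertk, Tmem176b and Lama2 came to meet it. Smad3, counted with its list at the end, was no longer among the measured genes past the rule.

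The genes that were read in many fewer 4.5-month cells, and at lower level, included Idi1, Sc5d and Elovl2 of lipid synthesis and the thioredoxin Txn1. Among 159 genes lower in both detection and level, the 12 with the largest difference included Elovl2, Idi1, Txn1, Cirbp, Sc5d, Pde8b, Ccdc50, Rnf139, Abr, Ergic1 and Gna13, with differences from -4.49 to -3.50. All 12 met the size rule in each run that left out a single cell. Without the 4 shallow 2-month cells 11 of the 12 did, the exception being Idi1, whose ratio of summed CPM was 1.93.

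Elovl2, which elongates very long polyunsaturated fatty acids (chromosome 13, 41182381 to 41220405, mm10), ranged from 0 to 512 CPM (median 197) at 2 months and from 0 to 283 CPM (median 0) at 4.5 months. Reads came from 10 of 13 cells against 3 of 13. The ranges overlapped, but only 3 of the older cells stood above 0, and mean log2(CPM + 1) was 6.12 ± 3.55 against 1.63 ± 3.14 (SD over 13 cells each). The CPM of summed counts was 244 (exact Poisson 95% interval 236 to 254, counting error only) against 34.2 (31 to 37.7).

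Txn1, the cytosolic thioredoxin that reduces disulfides (chromosome 4, 57943373 to 57956411), was read in every 2-month cell, from 60.6 to 344 CPM with a median of 166. At 4.5 months it ran from 0 to 181 CPM with a median of 2.19. The 2-month cells formed a narrow band, and the older cells split into some near that band and others near 0, so that the means were 7.31 ± 0.66 and 3.34 ± 3.33. Cirbp, a cold-inducible RNA-binding protein, had the same form, with 63.2 to 502 CPM (median 246) in 13 of 13 cells and 0 to 236 CPM (median 24.6) in 8 of 13. In 148 of the 169 pairs of an older and a younger cell, the older cell had less Cirbp.

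Pde8b, a cAMP phosphodiesterase, had a median of 170 CPM (0 to 640) at 2 months and 0 CPM (0 to 147) at 4.5 months. Rnf139, a ubiquitin ligase of the endoplasmic reticulum, was read in 9 and 4 cells with medians of 231 and 0 CPM. Gna13, an alpha subunit of heterotrimeric G proteins, was read in 11 and 4 cells with medians of 94.7 and 0 CPM.

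Genes read in many more 4.5-month cells, and at higher level, included the adhesion gene Vcl, the matrix gene Prelp and App. Among 110 such genes the 12 with the largest difference were Vcl, Prelp, App, C1qbp, Clcc1, Tmem60, Ccdc107, Nemf, Pnpla8, St8sia5, Nfyb and Arsk, with differences from 3.42 to 5.03. All 12 met the size rule in each run that left out a single cell and without the shallow 2-month cells.

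Vcl, which encodes vinculin of focal adhesions (chromosome 14, 20929398 to 21033676), ranged from 0 to 461 CPM (median 0) at 2 months and from 0 to 600 CPM (median 179) at 4.5 months. Reads came from 4 and 11 cells. The 11 older cells with reads lay between 92.1 and 600 CPM, a range that 2 of the younger cells reached, and the means were 1.56 ± 3.14 and 6.60 ± 3.03. Prelp, a small leucine-rich proteoglycan of the extracellular matrix (chromosome 1, 133910304 to 133921414), was read in 6 of 13 cells at 0 to 516 CPM (median 0) and in 13 of 13 cells at 105 to 1046 CPM (median 301). No older cell lacked it, and the younger cells that had it, at 107 to 516 CPM, covered the span in which most older cells lay.

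App, the amyloid precursor protein gene (chromosome 16, 84949685 to 85173766), was read in 3 cells at 2 months and in 12 cells at 4.5 months, with 0 to 197 CPM (median 0) against 0 to 490 CPM (median 98.6). The CPM of summed counts was 8.81 (7.21 to 10.7) and 134 (128 to 141). In the green qNSC cells App was read in 12 of 15 cells of 2 months and 8 of 10 cells of 4.5 months, with means of 6.16 ± 4.00 and 4.63 ± 3.68, so the low App level was in the red 2-month cells. Nfyb, a subunit of the CCAAT-binding factor NF-Y, was read in 1 and 8 cells, at 0 to 126 CPM (median 0) and 0 to 395 CPM (median 73.4). Clcc1, a chloride channel protein of the endoplasmic reticulum, had a median of 27.9 CPM (0 to 386) at 2 months and 367 CPM (20.3 to 715) at 4.5 months. C1qbp, a protein of the mitochondrial matrix, had medians of 0 CPM (0 to 225) and 172 CPM (0 to 347).

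**Figure D1:**
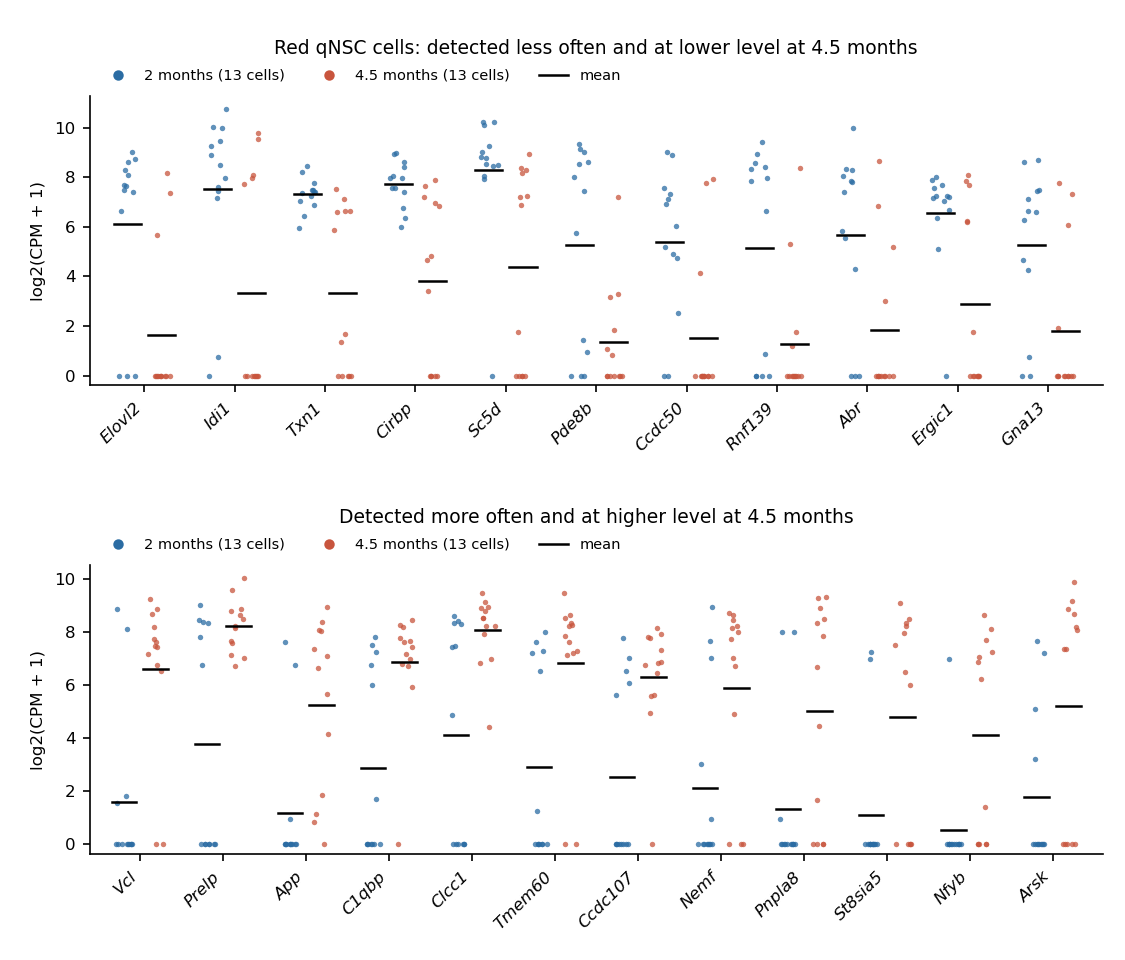
Log2(CPM + 1) of each red qNSC cell (points, 13 per age) and the mean (black bar) for genes with the largest lower difference (top) and the 12 with the largest higher difference (bottom) at 4.5 months. In most genes the ages overlap among cells that have reads and differ in how many cells lie at 0; Txn1 and Cirbp were read in all 13 cells of 2 months, Prelp and Clcc1 in all 13 cells of 4.5 months.

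Genes read in most cells of both ages were taken separately. Of 809 genes read in at least 20 of the 26 cells and in at least 9 of 13 of each age, the 8 with the largest lower difference were Gdi2, Slc15a2, Dars, Hiat1, Ppp2r1a, Sccpdh, Laptm4b and Eif2s2. All 8 were read in 9 of the 13 older cells and in 11 to 13 of the younger ones. Gdi2, Dars, Hiat1 and Eif2s2 met the size rule, while the other four, with ratios of summed CPM between 1.62 (Slc15a2) and 1.91 (Laptm4b), did not. Gdi2, which recycles Rab GTPases, ranged from 0 to 956 CPM (median 586) at 2 months and from 0 to 759 CPM (median 13) at 4.5 months, with means of 8.48 ± 2.61 and 4.52 ± 4.14. Slc15a2, a peptide transporter, ranged from 172 to 1083 CPM (median 450) and from 0 to 1177 CPM (median 235). Every 2-month cell had Slc15a2 reads, and the older cells included both the highest value and several at 0. Hiat1 lost the size rule in 8 of the 26 runs that left out 1 cell, with a ratio of 1.81 at the weakest.

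The 8 with the largest higher difference included Fam107a, Mpv17, Pik3ip1, Sfxn1, Serinc3, Mrps33 and Tm2d1. The size rule was met by Mpv17, Sfxn1, Serinc3 and Mrps33, and not by Fam107a (ratio 1.79), Pik3ip1 (1.73) and Tm2d1 (1.99). Leaving out 1 cell at a time, Serinc3 kept the rule in 26 of 26 runs, Mrps33 in 22, Sfxn1 in 19 and Mpv17 in 13. Fam107a, a regulator of actin bundling that astroglia express, ranged from 0 to 759 CPM (median 256) at 2 months and from 192 to 998 CPM (median 458) at 4.5 months. Serinc3, a membrane protein of the serine incorporator family, ranged from 0 to 1317 CPM (median 334) and from 146 to 2156 CPM (median 1014). Both were read in every older cell, and the older cell was higher in 126 of 169 pairs for Fam107a and in 142 of 169 for Serinc3. Pik3ip1, an inhibitor of PI3 kinase, had medians of 161 CPM (0 to 732) and 350 CPM (50.7 to 1086). Mpv17, a protein of the inner mitochondrial membrane, no longer met the size rule without the shallow 2-month cells, where its ratio was 1.79.

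Cholesterol synthesis genes were lower more often than higher in the 4.5-month cells. Of 18 measured members, 13 were lower and 5 higher in mean, with a median difference of -0.84 against -0.14 over all measured genes. The size rule was met by 5 of the 18 in the lower direction (Idi1, Sqle, Nsdhl, Sc5d and Dhcr7), against a background of 14.2% of genes, and by 0 of 18 in the higher direction, against 10.4%. Without the endothelial-marker cell 4 of the 18 met it, since the difference of Dhcr7 was then -0.84. The median ranged from -1.09 to -0.47 when single cells were left out, and was -0.83 without the endothelial-marker cell and -1.05 without the shallow 2-month cells. In the summed level the ages lay closer together: the members' CPM added up to 483 to 10795 per cell (median 5028) at 2 months and to 1162 to 7630 (median 4374) at 4.5 months.

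Promoters are printed for 3 of the genes that met the size rule, and for Hmgcs1, an enzyme of the pathway's early steps that did not meet it. They are RefSeq promoters of build GRCm38.p6, from 250 bases before to 50 after the start, written 5′ to 3′ on the gene's strand. Capitals mark CCAAT, or ATTGG where it lies on the other strand, and in Hmgcs1 also TCACNCCAC, a sterol regulatory element letter pattern. The windows are chr13:8885356-8885655 (plus strand) for Idi1, chr9:42264251-42264550 (minus strand) for Sc5d, chrX:72918271-72918570 (plus strand) for Nsdhl and chr13:119690101-119690400 (plus strand) for Hmgcs1.
Idi1: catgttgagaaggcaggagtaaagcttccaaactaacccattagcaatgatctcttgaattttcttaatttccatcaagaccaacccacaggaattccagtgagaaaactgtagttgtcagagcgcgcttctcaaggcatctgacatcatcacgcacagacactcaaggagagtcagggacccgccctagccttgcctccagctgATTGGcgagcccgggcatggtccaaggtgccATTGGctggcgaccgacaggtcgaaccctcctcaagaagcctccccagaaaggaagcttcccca
Sc5d: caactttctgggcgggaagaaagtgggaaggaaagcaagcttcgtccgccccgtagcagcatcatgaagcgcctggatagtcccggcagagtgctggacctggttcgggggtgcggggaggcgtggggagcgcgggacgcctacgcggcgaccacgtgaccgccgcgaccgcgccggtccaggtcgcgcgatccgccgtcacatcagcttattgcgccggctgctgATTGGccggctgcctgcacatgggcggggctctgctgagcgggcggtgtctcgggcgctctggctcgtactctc
Nsdhl: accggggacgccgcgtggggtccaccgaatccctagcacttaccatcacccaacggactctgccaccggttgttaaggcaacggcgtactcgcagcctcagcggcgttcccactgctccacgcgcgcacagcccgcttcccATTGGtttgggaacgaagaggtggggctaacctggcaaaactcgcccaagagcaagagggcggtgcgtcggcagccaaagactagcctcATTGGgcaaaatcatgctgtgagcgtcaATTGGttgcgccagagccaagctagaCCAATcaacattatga
Hmgcs1: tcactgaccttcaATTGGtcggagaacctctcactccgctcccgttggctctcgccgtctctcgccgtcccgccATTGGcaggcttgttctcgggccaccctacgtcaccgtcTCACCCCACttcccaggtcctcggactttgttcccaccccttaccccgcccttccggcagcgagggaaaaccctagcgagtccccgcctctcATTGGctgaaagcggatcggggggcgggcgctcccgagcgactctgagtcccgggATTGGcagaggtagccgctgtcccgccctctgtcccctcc
Searched on both strands, TCACNCCAC occurred in 408 of 32851 RefSeq promoters of this length (1.24%) and CCAAT in 12289 (37.4%). The patterns can share an end letter, and in the Hmgcs1 window their matches do not overlap. Of the 18 measured pathway genes 13 had a promoter in the set. These genes had 16 promoters, of which 12 held CCAAT; Dhcr7 had it in only 1 of its 3. Counted by gene, CCAAT was found for 12 of the 13 and TCACNCCAC for 1, Hmgcs1, at 137 bases before the start. A match is a description of the letters only.

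The early steps of the pathway differed in size. Hmgcs1, which makes HMG-CoA (chromosome 13, 119690379 to 119708260), ranged from 0 to 862 CPM (median 215) at 2 months and from 0 to 1206 CPM (median 120) at 4.5 months, a difference of -1.55 that did not meet the size rule. Idi1, which isomerises isopentenyl pyrophosphate (chromosome 13, 8885501 to 8892451), ranged from 0 to 1702 CPM (median 358) and from 0 to 881 CPM (median 0). It was read in 12 of 13 and 5 of 13 cells, and the older cells that had it reached the range of the younger ones. The means were 7.52 ± 3.36 and 3.31 ± 4.40, and the CPM of summed counts was 439 (427 to 451) and 180 (172 to 188).

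Sqle, the squalene epoxidase (chromosome 15, 59315077 to 59331192), ranged from 0 to 1118 CPM (median 279) and from 0 to 504 CPM (median 7.8). Cyp51, the lanosterol demethylase, ranged from 0 to 903 CPM (median 73.8) and from 0 to 749 CPM (median 0), a difference of -2.34 with a ratio below the rule. Nsdhl, an X-linked sterol dehydrogenase (chromosome X, 72918557 to 72958514), was read in 8 and 3 cells, at 0 to 455 CPM (median 163) and 0 to 234 CPM (median 0). Nsdhl is X-linked, and the sex-linked reads followed the ages. Among all 243 measured X-linked genes the median difference was -0.19.

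Sc5d, a desaturase near the end of the pathway (chromosome 9, 42251595 to 42264256), ranged from 0 to 1192 CPM (median 433) and from 0 to 493 CPM (median 118). With reads in 12 and 8 cells, it had means of 8.29 ± 2.61 and 4.37 ± 4.00. Dhcr7, a reductase of the final steps, had medians of 92.1 CPM (0 to 529) and 18.3 CPM (0 to 217), and met the size rule in 14 of 26 runs that left out 1 cell. Msmo1, a sterol C4 oxidase and the most abundant member, went the other way in its mean, with a difference of 1.12, but its median was lower, 1894 CPM (0 to 4152) against 1333 CPM (234 to 4041).

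**Figure D2:**
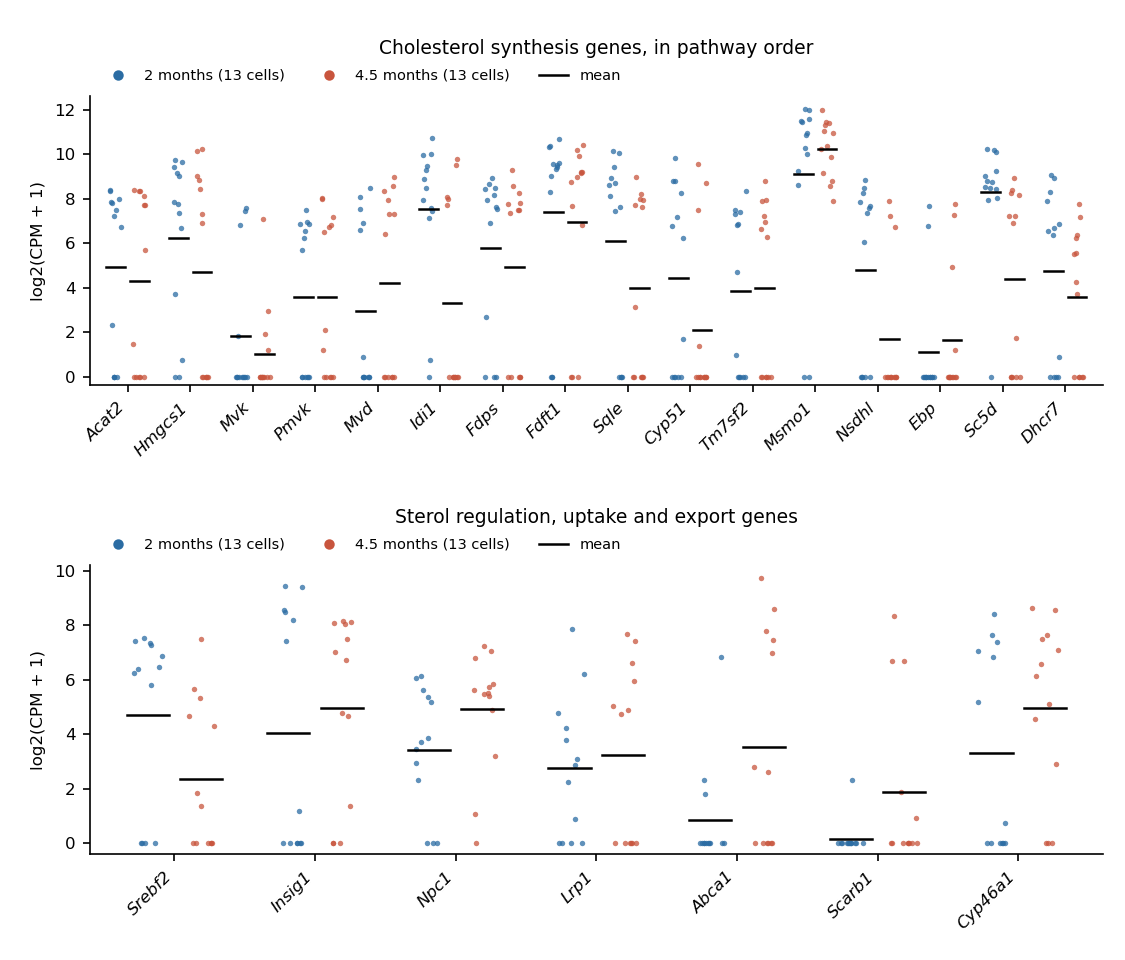
Log2(CPM + 1) of each red qNSC cell (points, 13 per age) with the mean (black bar) for measured cholesterol synthesis genes in pathway order (top) and for 7 genes of sterol regulation, uptake and export (bottom). The mean of Idi1 was 7.52 at 2 months and 3.31 at 4.5 months, that of Srebf2 4.72 and 2.37, and that of Abca1 0.85 and 3.54.

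Genes of sterol regulation, uptake and export lay on the other side. Of 16 measured members 14 were higher and 2 lower at 4.5 months, with a median difference of 0.74 against -0.14 over all measured genes. The size rule was met by 3 of the 16 higher (Npc1, Abca1 and Scarb1), against a background of 10.4% of genes. It was met by 1 lower (Srebf2), against 14.2%. The median ranged from 0.38 to 1.11 when single cells were left out, and without the shallow 2-month cells the counts were 13 and 3 and the median was 0.33. In the green qNSC cells 8 were higher and 9 lower, with a median of -0.08, and the difference between the subsets was not tested.

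Srebf2, which encodes the transcription factor SREBP2 (chromosome 15, 82147181 to 82205379), ranged from 0 to 184 CPM (median 82.8) at 2 months and from 0 to 182 CPM (median 1.62) at 4.5 months. With reads in 9 and 7 cells, it had means of 4.72 ± 3.32 and 2.37 ± 2.74. The highest cells of both ages were alike, and the older cells with reads were mostly lower. Insig1, a sterol sensor that is itself a target of SREBP, had medians of 1.27 CPM (0 to 699) and 105 CPM (0 to 283) but a lower CPM of summed counts, 188 against 130.

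Abca1, the cholesterol exporter (chromosome 4, 53030787 to 53159895), ranged from 0 to 115 CPM (median 0) at 2 months and from 0 to 852 CPM (median 5.2) at 4.5 months. It was read in 3 and 7 cells, and the CPM of summed counts was 11.6 (9.73 to 13.7) and 137 (130 to 143). The 2-month sum came mostly from the 1 cell at 115 CPM, the other two cells with reads lying at 2.53 and 4.09 CPM. Scarb1, a receptor for high-density lipoprotein, was read in 1 and 5 cells, with summed CPM of 0.084 (0.0021 to 0.468) and 33.4 (30.2 to 36.8). The 5 older cells with Scarb1 reads lay at 0.914, 2.74, 103, 103 and 328 CPM, so that 3 of them made up nearly all of the sum. Npc1, which moves cholesterol out of lysosomes, had medians of 12.3 CPM (0 to 70.5) and 44.9 CPM (0 to 149). Cyp46a1, which hydroxylates cholesterol, had medians of 0.67 CPM (0 to 338) and 69.6 CPM (0 to 398), with a ratio below the rule. Apoe and Clu, the abundant lipid carriers, differed by 0.37 and 0.26 only, and Apoe ranged from 10292 to 42000 CPM (median 28242) and from 14511 to 45175 CPM (median 36139).

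Stem cell identity genes were mostly near equal or slightly higher. Of 21 measured members 16 were higher and 5 lower, with a median difference of 0.35. Of these 0 met the size rule in the higher direction, against a background of 10.4% of genes. In the lower direction 2 met it, Id3 and Nr2e1, against 14.2%. Hopx ranged from 149 to 6134 CPM (median 1740) at 2 months and from 387 to 3605 CPM (median 1687) at 4.5 months. Its means were 10.30 ± 1.54 and 10.56 ± 1.09, a difference well within the spread between cells. Sox2, Sox9 and Id4, transcriptional regulators of stem cells, differed by 0.47, 0.98 and 0.13.

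Gfap ranged from 7.3 to 729 CPM (median 253) at 2 months and from 0 to 5144 CPM (median 159) at 4.5 months. Its mean was lower by 0.35 at 4.5 months, while its CPM of summed counts was higher, 558 against 323. Without the highest 4.5-month cell the ratio was 0.508, so a single cell decided the direction of the sum. Aldoc, the glial aldolase, ranged from 8308 to 21778 CPM (median 16600) and from 10858 to 28990 CPM (median 17904).

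Against this, regulators of the stem cell state such as Hes5, Id3 and Nr2e1 had lower means in the older cells. Hes5, a Notch target that holds stem cells undifferentiated (chromosome 4, 154960923 to 154962371), ranged from 0 to 737 CPM (median 73.8) and from 0 to 357 CPM (median 0). It was read in 10 and 4 cells with means of 4.95 ± 3.39 and 2.16 ± 3.42, and its ratio of summed CPM did not reach the rule. Without the shallow 2-month cells the difference of Hes5 was -1.60 and the older-to-younger ratio of summed CPM was 0.88. Id3, a target of bone morphogenetic protein signals, ranged from 0 to 1280 CPM (median 175) and from 0 to 1026 CPM (median 13). Its highest 4.5-month value was that of the endothelial-marker cell, without which the difference was -2.92 in place of -2.43. Nr2e1, a nuclear receptor of stem cells, was read in 6 and 5 cells, with summed CPM of 50 (46.1 to 54.2) and 9.94 (8.23 to 11.9). Its highest 4.5-month value, 56.8 CPM, was also in the endothelial-marker cell, without which the older sum was 6.38.

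The Notch pathway as a whole showed no common direction. Of 17 measured members 9 were higher and 8 lower, with a median difference of 0.21 that was -0.01 without the endothelial-marker cell. The size rule was met by 1 in each direction, Numb, a Notch inhibitor, higher and Adam10, the protease that sheds Notch, lower. Over all measured genes it was met by 10.4% higher and 14.2% lower. Numb kept the rule in 23 of 26 runs that left out 1 cell, and its difference was 0.88 without the endothelial-marker cell, below the rule. Nrarp, a feedback target, was read in 2 and 7 cells at 0 to 386 CPM (median 0) and 0 to 412 CPM (median 0.893). Hey1, a target gene, was read in 6 and 3 cells, and the highest of its 4.5-month values, 683 CPM, was in the endothelial-marker cell. Without that cell Hey1 had a difference of -2.17 and summed CPM of 103 and 34.3, past the rule in the lower direction. The receptors Notch1 and Notch2 differed by -0.25 and -0.66.

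Progenitor and neuroblast genes were rarely read, with 4 of 20 members measured, and all 4 were lower in mean, with a median difference of -1.10. Without the shallow 2-month cells 3 were measured, 1 of them higher. Ccnd2, the D-type cyclin of neural progenitors (chromosome 6, 127125162 to 127152193), ranged from 0 to 240 CPM (median 40.1) at 2 months and from 0 to 410 CPM (median 0) at 4.5 months. It was read in 10 and 4 cells, with means of 4.67 ± 2.98 and 1.90 ± 3.08. Its ratio of summed CPM, 2.01, was just past the rule, and the rule was kept in only 10 of 26 runs that left out 1 cell (1.54 at the weakest). Sox11, a neuroblast transcription factor, was read in 4 and 1 cells with summed CPM of 6.71 (5.32 to 8.36) and 0.083 (0.0021 to 0.465), and kept the rule in 24 of 26 such runs. Stmn1, a microtubule regulator, had near equal summed CPM of 109 and 110.

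Extracellular matrix and proteoglycan genes gave 12 higher and 7 lower of 19 measured, a median of 0.32, and only Prelp met the size rule. The background over all measured genes was 10.4% higher and 14.2% lower. Lama2, a laminin subunit, was past the rule in the lower direction without the endothelial-marker cell (-1.08). Without the shallow 2-month cells the direction turned, with 8 higher and 12 lower of 20 and a median of -0.16. Prelp itself kept a difference of 3.73 there. Bcan, the brain proteoglycan brevican, was abundant in every cell, from 425 to 5376 CPM (median 1764) and from 256 to 3123 CPM (median 1590). Gpc5, a glypican, ranged from 9.12 to 1236 CPM (median 581) and from 29.2 to 2178 CPM (median 623). Mmp14, a membrane metalloprotease, was read in 7 and 10 cells with a difference of 1.47.

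Receptors and adaptors of Reelin, semaphorin and plexin signalling showed no common direction: 5 were higher and 9 lower of 14 measured, with a median of -0.33. The size rule was met by Lrp8, Crk and Plxnb2 in the higher direction, against a background of 10.4% of genes. It was met by Dab1 in the lower, against 14.2%. Lrp8, a Reelin receptor, ranged from 0 to 123 CPM (median 0) and from 0 to 301 CPM (median 0.914), read in 3 and 7 cells. Lrp8 and Crk kept the rule in 26 of 26 runs that left out 1 cell, and Plxnb2 in 24, with a difference of 0.53 at the lowest. Plxnb2 was read in 1 and 4 cells, and only 2 of the older cells, at 224 and 527 CPM, stood above 2 CPM. Dab1, the adaptor that Reelin receptors signal through (chromosome 4, 103619359 to 104744844), ranged from 0 to 475 CPM (median 167) and from 0 to 302 CPM (median 87.6). Its ratio of 2.02 was just past the rule, which it kept in 14 of 26 runs without 1 cell and lost without the shallow 2-month cells (1.92). Ephb1, an ephrin receptor, had a lower mean (-1.53) and a higher summed CPM, 81.4 against 63.8. Without its highest 4.5-month cell the ratio of the sums was 0.73 in place of 1.28, so a single cell decided the direction of the sum.

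Genes for the uptake of dying cells gave 9 higher and 7 lower of 16 measured, with a median of 0.38, and 0.04 without the shallow 2-month cells. The size rule was met by 3 higher (Pros1, Dock1 and Abca1), against a background of 10.4% of genes, and by 1 lower (Axl), against 14.2%. Axl had a difference of -1.43, and -3.03 without the shallow 2-month cells. It kept the rule in 14 of 26 runs that left out 1 cell. Without the endothelial-marker cell neither Axl nor Pros1 met it. The difference of Pros1 was then 0.76, while Axl kept a difference of -1.175 and fell short in its ratio of summed CPM. Mertk, the receptor kinase that binds bridging proteins on dying cells (chromosome 2, 128698956 to 128802894), ranged from 0 to 330 CPM (median 0) at 2 months and from 0 to 863 CPM (median 153) at 4.5 months. The 6 and 11 cells with reads gave means of 3.48 ± 3.98 and 5.94 ± 3.42 and a ratio of 1.96, below the rule. Dock1, which activates the GTPase Rac1 during engulfment, was read in 5 and 10 cells at 0 to 202 CPM (median 0) and 0 to 679 CPM (median 212). Rac1 itself went the other way, from 147 to 998 CPM (median 624) to 0 to 634 CPM (median 271). Itgav, an integrin that takes part in engulfment, was read in 5 and 9 cells, with a difference of 1.78.

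Other named membrane, astroglial and metabolic genes gave mixed values. Tmem176b, a membrane protein, ranged from 0 to 816 CPM (median 399) at 2 months and from 245 to 1632 CPM (median 723) at 4.5 months, read in 11 and 13 cells, with a difference of 2.13. Aqp4, the water channel of astroglial endfeet, was read in 10 and 13 cells, so that its mean was higher (1.79) although its CPM of summed counts was lower, 776 against 1033. S100b was read in 9 and 12 cells, with medians of 190 CPM (0 to 403) and 235 CPM (0 to 846). Pdha1, an X-linked subunit of pyruvate dehydrogenase, was lower by 2.83, with medians of 191 CPM (0 to 763) and 0.893 CPM (0 to 1104). Wnt7a, a secreted Wnt ligand, was read in 7 and 3 cells, and Abl1 and Prox1 were read in too few red cells to be measured.

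**Figure D3:**
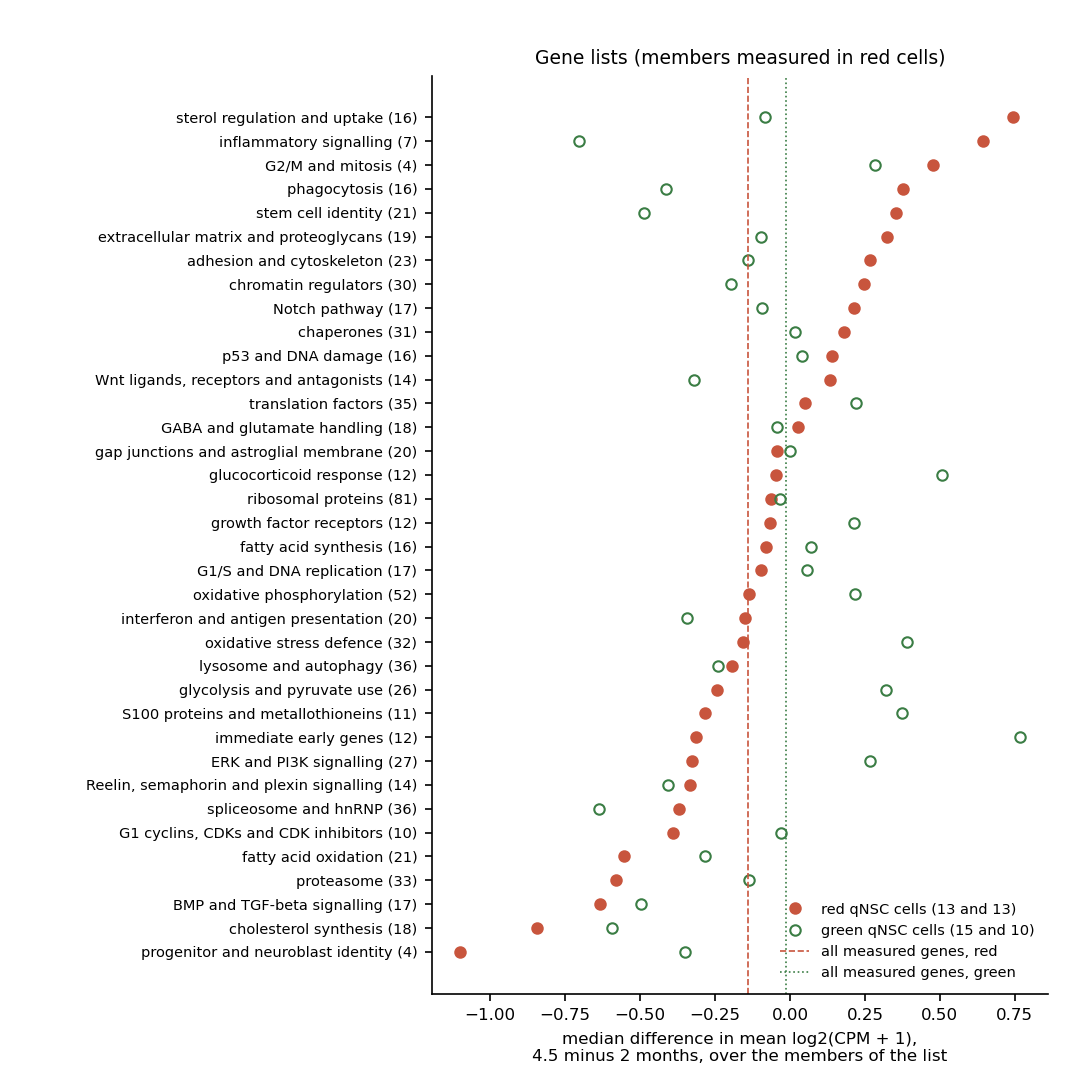
Median over the measured members of 36 gene lists of the difference in mean log2(CPM + 1), 4.5 minus 2 months, in red qNSC cells (filled) and green qNSC cells (open), with the median of all measured genes as vertical lines (-0.14 red, -0.01 green) and the number of members measured in red cells in brackets. Sterol regulation and uptake lies highest in red cells (0.74), and progenitor and neuroblast identity (-1.10) and cholesterol synthesis (-0.84) lowest.

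The green qNSC cells, 15 of 2 months and 10 of 4.5 months, gave the same age contrast in another subset of the same class. Cholesterol synthesis genes were lower there in 14 of 18 measured members, with a median of -0.59, against 13 of 18 and -0.84 in red cells. Stem cell identity genes were lower in 15 of 24 there, with a median of -0.49, where the red cells had 16 of 21 higher. Hes5 was lower in both, by 3.43 in green and 2.78 in red cells, and Id3 by 3.27 and 2.43. Without the shallow 2-month cells the red difference of Hes5 was -1.60. Sqle, too, was lower in both, by 3.12 and 2.11.

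Other genes gave unlike values in the subsets. Plxnb1, a semaphorin receptor, had means of 7.06 ± 2.19 and 2.06 ± 3.40 in green cells, where 14 of 15 and 3 of 10 cells had a read, and was lower by 0.71 in red cells, where 11 and 8 of 13 did. Map2k2, a kinase of the ERK cascade, was lower by 5.08 in green and by 1.35 in red cells. Dock1 was higher by 2.59 in red and lower by 2.07 in green cells, and Ccnd2 was lower by 2.77 in red and higher by 0.48 in green cells. Of the 12 genes with the largest higher difference in red cells 7 were higher in green cells too, and of the 12 lower ones 8 were lower. Over all 8779 genes measured in green cells, 4349 were higher and 4430 lower. Of the 8 genes each way read in most cells, 5 of the higher ones were higher in green cells and 2 of the lower ones lower, the latter with a green median of 0.16. Since the genes were picked for their size in the red cells, smaller values in the green cells come with the choice, and the difference between the subsets was not tested.

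**Figure D4:**
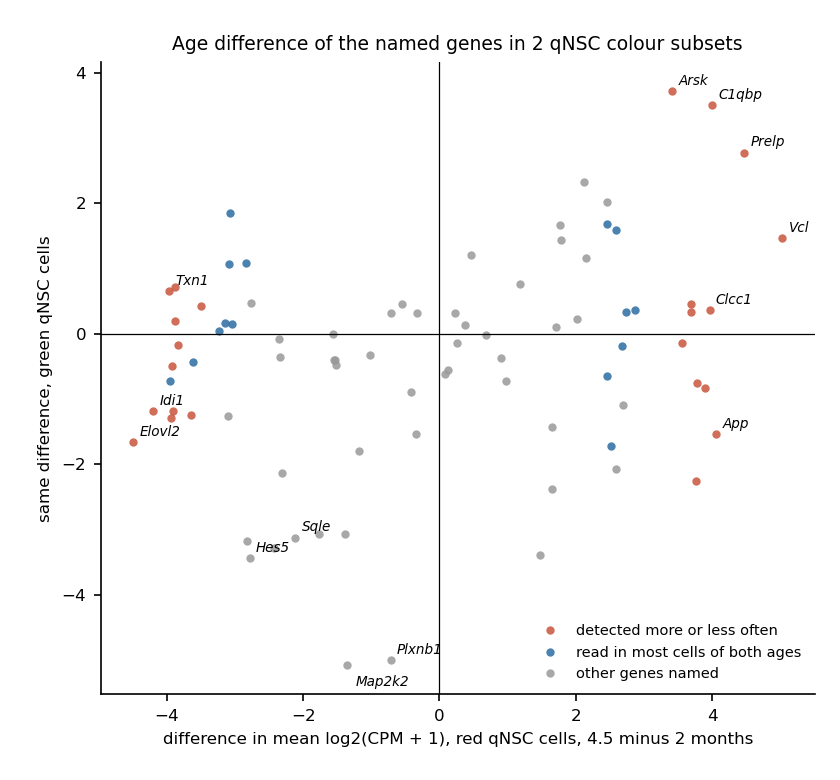
Difference in mean log2(CPM + 1), 4.5 minus 2 months, of named genes in red (x axis) and green (y axis) qNSC cells. Vcl, Prelp, C1qbp and Arsk are higher and Elovl2, Idi1, Sqle and Hes5 lower in both, while Plxnb1 and Map2k2 lie far lower in green than in red cells. App (4.06 in red, -1.53 in green) and Txn1 (-3.97 in red, 0.66 in green) have opposite signs in the subsets.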

How the data were processed

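Single cells of the dentate gyrus were sequenced one by one. The authors deposited a table of estimated (expected) counts per gene and cell and a table of TPM, and the deposited class and colour table (unit other, names only) gave the red qNSC cells; what the colours mean is not given in the sources used here. STAR, RSEM and mm10 are named per the submitters' processing notes, and their versions are not given in the sources used here. Among nonzero deposited estimated counts, 4.44% lay off a whole number by more than 1e-06; all were rounded for detection and intervals. The deposited TPM sum to 1000000 in every cell and served as an alternative scale. No gene name marked a mitochondrially encoded gene.

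Counts were scaled to CPM per cell and taken as log2(CPM + 1), with python 3.11.15, numpy 2.4.6, pandas 2.3.3 and scipy 1.17.1; figures used matplotlib 3.10.9. A gene was measured when 20% or more of the cells at 1 of the ages had a read. No test was run, because each age is 1 sample. Intervals are exact Clopper-Pearson for shares and exact Poisson for summed counts, both at 95%; they and the limits set by a count of 0 (3 counts) cover counting error only, since the reads carry no molecular identifiers and are not independent molecules. At the depth of 244697 to 1485663 counts per cell, a gene without a read in a cell may still be expressed there.

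The members and lists were chosen with earlier results of these data known. The genes named were the 12 with the largest difference each way among genes read in at least 5 cells of either age, with a difference of at least 2, summed CPM at least 2-fold apart also without the highest cell of the higher age, and at least 4 more cells with a read; the 8 largest each way among genes read in at least 20 of the 26 cells and in 9 of 13 of each age; 30 fixed genes; and up to 4 members of each list described in detail. Predicted genes, pseudogenes, Xist, Tsix and Y-linked genes were left out, and a few genes that enter the counts are not reported here by name. The size rule was run on simulated cells with known changes, and the naming rule was not. Positions are from a GENCODE annotation of mm10, found for 164 of the 165 genes tabulated. Strand is not recorded by this kind of library, and reads of overlapping genes, such as Xist and Tsix, cannot be told apart. The alternatives were another pseudocount, TPM, other filters, thinning to 400000 reads, median-of-ratios scaling, medians over cells, and leaving out cells.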

Additional observations from a re-analysis of the deposited data

How the results depend on the processing

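Of the 88 named genes, none that met the size rule turned its direction under the alternatives run. The 12 higher and 12 lower genes with the largest differences all met the size rule under each alternative, except Idi1 without the shallow 2-month cells. That alternative was chosen after seeing the data. Since these genes were picked by a stricter rule, keeping the size rule comes largely with the choice. Counts past the size rule depended on the scale: the genes higher at 4.5 months went from 811 to 282 with log2(CPM + 10), 284 among genes read in 50% of cells and 295 with medians over cells, and the genes lower at 4.5 months from 1102 to 472, 397 and 359. The share of measured genes lower at 4.5 months, 54.6%, was 53.2% with median-of-ratios scaling, 58.67% without the endothelial-marker cell, 55.98% without the shallow 2-month cells, and 52.68% to 58.67% when single cells were left out. It was 22.69% with medians over cells, where genes at a median of 0 in both ages count as not lower. By the same construction the share of the Reelin, semaphorin and plexin list that was lower went from 64.3% to 21.43%, and 8 of the 36 lists moved with medians over cells. No paired analysis was possible because no test was run and no label pairs cells across the ages. Precision is limited by 13 cells per age, by the unknown number of animals, by sex-linked reads that follow age, and by dropout of genes with few reads, so a difference in cells with a read may be one of detection or of level.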

Other observations

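Further gene groups of the red qNSC cells were counted without being followed gene by gene. The counts past the size rule here and below stand beside background shares of 10.4% higher and 14.2% lower over all measured genes. Of 21 measured genes of fatty acid oxidation 9 were higher and 12 lower at 4.5 months, with a median difference of -0.55. The size rule was met by 5 lower, among them Slc25a20, the acylcarnitine shuttle, Hadha, Acaa1a and Etfb, and by 1 higher, Hsd17b4. Genes of ERK and PI3K signalling gave 10 higher and 17 lower of 27, and 6 were past the rule in the lower direction, among them Grb2 and Pik3ca, which transmit growth signals, and Tsc1, which restrains them. Spry2, a feedback inhibitor of ERK signalling, was past the rule in the higher direction. Proteasome subunits gave 13 higher and 20 lower of 33 (median -0.58, and -0.25 to -0.72 when single cells were left out), with 2 past the rule lower and 1 higher. Genes of BMP and TGF-beta signalling gave 5 higher and 12 lower of 17, with Id1 and Id3 past the rule lower and Smad3 higher. Without the endothelial-marker cell they were 3 higher and 11 lower of 14, with 0 past the rule in the higher direction.

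Some groups gave unlike counts in the red and green qNSC cells, and these differences were not tested. Immediate early genes were higher in 5 and lower in 7 of 12 measured in red cells, with Fos, Jun, Jund and Dusp1 past the size rule in the lower direction. Without the endothelial-marker cell they were 2 higher and 7 lower of 9. In green cells 13 were higher and 3 lower of 16. The summed CPM of immediate early genes in red cells ran from 142 to 22611 per cell (median 518) at 2 months. At 4.5 months it ran from 34 to 2242 (median 506). Their median difference in red cells, -0.31, ranged from -1.02 to 0.05 when single cells were left out. Genes that respond to glucocorticoids were 6 higher and 6 lower of 12 in red cells and 13 higher and 1 lower of 14 in green cells. Genes of oxidative stress defence were 13 higher and 19 lower of 32 in red cells. In green cells they were 22 higher and 8 lower of 30. In red cells 5 were past the rule lower (Cat, Txn1, Gclc, Gss and Nqo1), near the background of 14.2% of genes. Another 3 were past it higher (Gsr, Hmox2 and Keap1), against 10.4%. S100 proteins and metallothioneins were 2 higher and 9 lower of 11 in red cells and 7 higher and 3 lower of 10 in green cells.

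Oxidative phosphorylation genes, all 52 of which were measured, had 0 members past the size rule in either direction, against 10.4% higher and 14.2% lower over all genes. The same held for the 20 genes of gap junctions and the astroglial membrane. Most members of both groups were read in each cell, a median of 49 and 48 of the 52 at 2 and 4.5 months and 16 of the 20 at both. The median differences of the 2 groups were -0.14 and -0.04.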
